A study of Dugesia japonica with 18 samples.

Results

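The comparison described here is the last sampling interval of an X-ray time course in the planarian Dugesia japonica, from day 5 to day 7 after irradiation. It was defined by the sampling days alone: the 3 libraries of day 7 were set against the 3 libraries of day 5, which are 6 of the 18 libraries of the series. All 17129 of 25566 gene models that passed a filter on low counts were tested. Every library held RNA of whole animals of the clonal strain SSP, about 5 mm long and starved before use. Both the day 5 and the day 7 animals had received X-rays at 150 Roentgens, so the step compares irradiated with irradiated animals. The series also holds day 0, which the design text gives as not irradiated although the treatment label states the dose for all samples, and days 0.5, 1 and 3, each with 3 biological replicates. Those 12 libraries served here to describe the earlier course of the gene models that changed after day 5. None of the libraries used here is of unirradiated animals at day 5 or day 7, so time since irradiation cannot be told apart from time without food or any other effect of elapsed time. No source used here gives the number of animals behind a library or says whether replicates were separate animals. The p-values therefore measure spread between libraries, estimated over all 18 and not from days 5 and 7 alone.

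Planarians renew all their tissues from dividing stem cells called neoblasts, which are the dividing cells of the adult body. Neoblasts give rise to progenitors that no longer divide and mature over days into epidermis, gut, muscle, nerve and other cells. X-rays remove dividing cells, after which existing progenitors go on maturing and are not replaced, while differentiated cells remain for longer. A whole-body library sums the RNA of all these cells. In such samples, fewer cells of a type and less RNA per cell cannot be told apart. The deposited tables give gene models as IDs without gene names, so the stem cell, progenitor or tissue identity of a gene model cannot be stated, and gene models are described by their levels and time courses. A total of 4 IDs are named.

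The day 7 libraries held 4679195 to 6114135 counts and the day 5 libraries 5814275 to 7121976, the lowest ranges of the 6 days. The means were 5415712 ± 718228 and 6665657 ± 737955 counts (SD, n = 3 each; exact two-sided permutation p = 0.2, where 0.1 is the smallest value that 3 against 3 libraries allow). Replicates also lay further apart at day 7. Among gene models averaging at least 20 CPM (a library's counts rescaled to a common total, CPM, after edgeR's TMM normalisation), the median SD of log2 CPM between replicates was 0.161 at day 7 and 0.105 at day 5. With every library thinned to 4679195 counts the medians were 0.159 and 0.117. Day 7 replicate 3 stood apart from the other two: its TMM factor was 1.13 against 0.973 and 1, and along the leading principal component of log2 CPM it reached 55.1, against 45.8 and 46.6 for replicates 1 and 2 and 31.6 to 34.2 for the day 5 libraries. The main counts of calls, and several shares of the called sets at earlier days, are also given without this library. The split by level, the read shares, the earlier course by size of fall and the overlaps between steps are given only with it.

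From day 5 to day 7, 277 gene models fell and 168 rose, which together are 445 of 17129, or 2.6% of those tested (edgeR quasi-likelihood test, adjusted p below 0.05). The falls were 1.62% and the rises 0.981% of the tested gene models. Falling gene models had a median log2 change of -0.61 and rising ones of 0.79, next to a median of -0.0033 for everything tested. At least 2-fold falls numbered 82 (0.479%) and at least 2-fold rises 53 (0.309%), and at least 4-fold changes numbered 4 and 7. Many calls were small: 125 falls and 50 rises were under 1.5-fold. In 271 of the 277 falls (1.58% of all tested) and 161 of the 168 rises (0.94%) the 3 libraries of one day did not overlap the 3 of the other. Over all gene models, 9.18% lay lower and 7.6% higher at day 7 without overlap. The same contrast made the calls, so nothing is read from these counts.

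The count of 445 depended on single libraries. Omitting day 7 replicate 3 left 272 calls, and omitting day 5 replicates 1, 2 or 3 left 280, 289 or 276. Without day 7 replicates 1 or 2 the calls numbered 443 or 386. Each omission also leaves fewer libraries in a group, which can cost calls by itself. For falls alone, omission of day 7 replicate 3 left 141, and of day 5 replicates 2 or 3 left 180 or 177. The other omissions from these days left 202 to 288 falls. For rises alone, omission of day 5 replicates 1, 2 or 3 left 78, 109 or 99, and of day 7 replicates 1, 2 or 3 left 155, 127 or 131. Falls of at least 2-fold numbered 47 with day 7 replicate 3 omitted, and rises of that size 31 with either that library or day 5 replicate 1 omitted. The highest counts, 98 such falls and 75 such rises, came without day 7 replicate 1. Of the 277 falls, 113 passed in each of the 6 fits that left out a library of these days, and of the 168 rises 27 did. With only the 6 libraries of the step in the fit, 109 fell and 102 rose. That fit takes its spread from days 5 and 7 alone, while the fit of all 18 libraries pools it over the days. At 20 CPM and above, the median SD between replicates was 0.161 at day 7 and 0.0897 to 0.113 on the other days. The pooled spread may thus be too small for day 7. How far this bears on the count of calls was not tested. Scaling by the ERCC control rows gave 156 falls and 65 rises, and thinning all libraries to 4679195 counts gave 175 and 99.

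**Figure D1:**
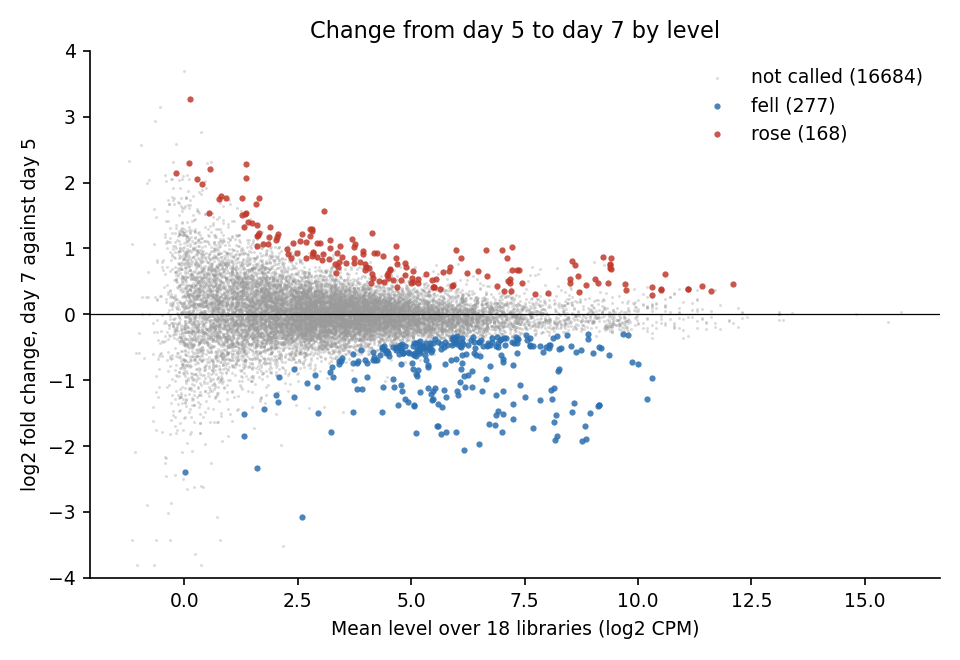
Log2 fold change from day 5 to day 7 (vertical axis, limited to between -4 and 4, which leaves out 7 points) against the mean level over 18 libraries (horizontal axis, log2 CPM), with 1 point per gene model. Blue points are the 277 that fell and red points the 168 that rose. Falls gather at middle and high levels, and the largest rises at low levels.

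Falls and rises lay at different levels. Below a mean of 5 CPM over the 18 libraries, 8 gene models fell and 35 rose of 5877 tested, and between 5 and 20 CPM 32 fell and 50 rose of 6314. Between 20 and 100 CPM 139 fell and 38 rose of 3674, and above 100 CPM 98 fell and 45 rose of 1264. Falls thus made up 18.6%, 39%, 78.5% and 68.5% of the calls in the 4 ranges. The rises of at least 2-fold came almost wholly from low levels, with 33 below 5 CPM, 18 between 5 and 20 CPM and 1 in each of the higher ranges. Those of the falls were spread to high levels, with 7, 9, 32 and 34. Over all gene models tested, the median log2 change was 0.063, 0.0042, -0.036 and -0.051 in the 4 ranges. It thus also went from positive to negative with rising level. The precision increased with level as well. The median standard error of the log2 change was 0.41, 0.2, 0.12 and 0.096, and the smallest rise called was 0.92 below 5 CPM and 0.29 above 100 CPM. A small change of a low gene model was therefore not detectable at this depth.

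Measured in reads, the gene models that fell held 2.96% to 3.06% of the counts in the day 5 libraries and 1.62% to 1.98% in the day 7 libraries. Those that rose went from between 3.77% and 4.18% to between 5.41% and 5.74%. The groups of 3 did not overlap in either set, as the choice of the sets ensures. The gains were concentrated: 10 of the 168 rising gene models made up 51.6% of the CPM gained, while the 10 largest falls made up 30.7% of the CPM lost, and 25 of the 277 were needed for 50%. The summed shares of both sets had already moved in the libraries that the step does not use. For days 0, 0.5, 1 and 3 in turn, the falling set took 4.06 ± 0.015%, 4.67 ± 0.121%, 5.39 ± 0.177% and 4.54 ± 0.115% of the counts (SD, n = 3 libraries each). Its highest share was thus at day 1, and all 3 day 1 libraries lay above all 3 day 0 libraries. The rising set took 2.77 ± 0.13%, 3 ± 0.206%, 3.49 ± 0.101% and 3.76 ± 0.142% on those days, so that its share had grown before day 5. A summed share weighs abundant gene models most. Per gene model, the median log2 level of the rising set relative to day 0 was 0.12, 0.17 and 0.2 on days 0.5, 1 and 3.

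**Figure D2:**
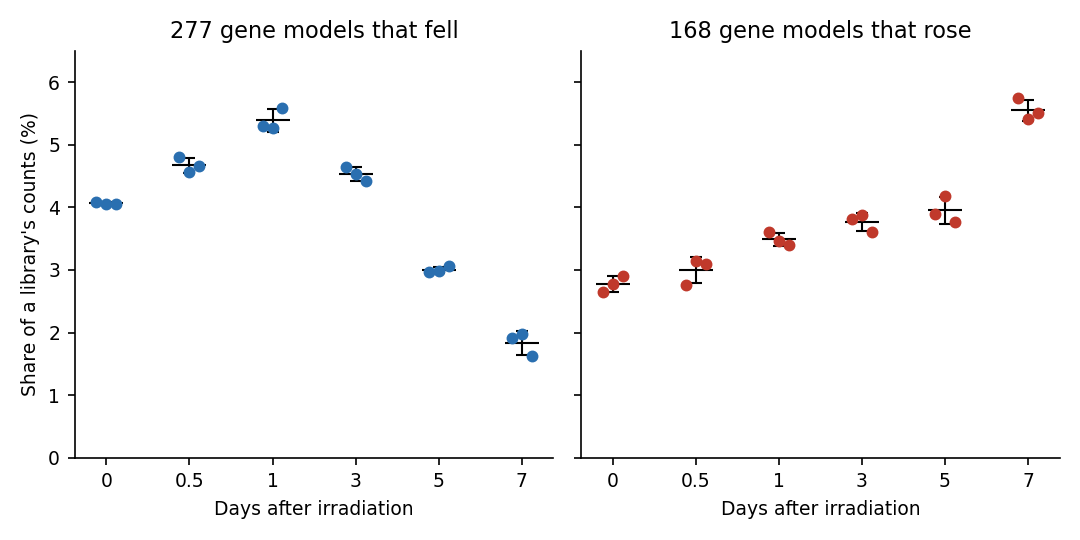
Share of each library's counts (vertical axis, %) held by the 277 gene models that fell (left, blue) and the 168 that rose (right, red) from day 5 to day 7, by days after irradiation (horizontal axis, equal spacing). Each point is a library, and the black marks give the mean and SD of 3. The falling set peaks at day 1 at 5.39% and ends at 1.84%, and the rising set climbs to 5.55%.

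Among the gene models that fell after day 5 were many that had first been above their day 0 level. At day 0.5, 29 of the 277 (10.5%) were higher and 8 lower than at day 0, against 2.59% and 7.44% of all tested. At 20 CPM and above, 11.8% of the falling set were higher at day 0.5, against 7.23%. By day 1, 95 of the 277 (34.3%) were higher than at day 0 and 15 (5.42%) were lower, against 7.17% higher and 12.8% lower among all gene models tested. Day 0, day 0.5 and day 1 libraries take no part in the contrast that made the calls, although all libraries share the filter and the estimate of spread. Over days 0.5, 1, 3, 5 and 7 the median log2 level relative to day 0 ran through 0.16, 0.24, 0.08, -0.27 and -0.92, while the median of all gene models stayed between -0.01 and 0.01. Called gene models were more abundant than most, and changes are easier to call there. Among those averaging at least 20 CPM, 91 of 237 in the falling set (38.4%) were higher at day 1, against 18.7% of the 4938 tested. The share of 34.3% became 21.5% without day 0 replicate 2, where 4.64% of all gene models tested were higher, and 56.7% without day 7 replicate 3, where 8.29% were. These falling gene models are 7.73% of the 1229 that were higher at day 1.

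At day 3 the falling set was split. There were 79 gene models higher than at day 0 (28.5%), 63 lower (22.7%) and 135 not called, against 13.3% higher and 18.5% lower over all tested. At 20 CPM and above the shares were 30.8% higher and 22.8% lower, against 33.2% and 20.4%. With all libraries they thus lay near the shares of all tested gene models of at least 20 CPM. That background was not matched for level beyond this minimum. Without day 7 replicate 3, 41.8% of the falling set was higher and 22.7% lower, against 14.3% and 18.9% of all tested. The shares at 20 CPM and above were not computed without that library. The 3 classes fell by similar amounts after day 5, with median log2 steps of -0.58, -0.64 and -0.64. They came from different heights. The class that was higher at day 3 had median log2 levels relative to day 0 of 0.45, 0.16 and -0.41 on days 3, 5 and 7. For the lower class these were -0.57, -1.31 and -1.95. At day 7, 269 of the 277 (97.1%) had a mean below that of day 0, against 49.5% of all tested, and 268 (96.8%) had their lowest mean of the 6 days, against 26.2%. The day 7 values also chose the set, so nothing is read from these counts.

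A part of the falls continued an earlier fall. From day 1 to day 3, which shares no library with the later step, 62 of the 277 fell (22.4%) and 3 rose, against 2.48% that fell and 0.543% that rose among all gene models tested. At 20 CPM and above the share was 25.3%, against 5.77%. It became 14.5% without day 3 replicate 3, where 1.24% of all tested fell, and 38.3% without day 7 replicate 3, where 3.09% did. The 62 are 14.6% of the 424 gene models that fell between day 1 and day 3. Across all 17129 gene models, the log2 changes of the 2 steps correlated weakly, with a Pearson r of 0.093, and with 0.18 over the 4938 with at least 20 CPM (a description across gene models, which are not independent, from libraries that share the fit and its scaling).

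Large and small falls had different counts in this history, and the difference between them was not tested. Of the 82 that fell at least 2-fold, 44 (53.7%) had been higher than day 0 at day 1 and 1 had been lower, and 36 (43.9%) had fallen from day 1 to day 3. Their median log2 levels relative to day 0 were 0.44, 0.06, -1.41 and -2.84 on days 1, 3, 5 and 7. Of the 125 that fell less than 1.5-fold, 31 (24.8%) had been higher at day 1 and 15 (12%) had fallen from day 1 to day 3. Their median log2 level relative to day 0 was -0.11 at day 5 and -0.54 at day 7. Over all gene models tested the shares were 7.17% and 2.48%, and over those of at least 20 CPM 18.7% and 5.77%. The size classes are not limited to that level. The small falls lay nearer to both backgrounds than the large ones. Small falls lie nearer the threshold and were lost more readily with any of the 6 libraries left out: 27 to 86 of the 125 passed again, against 66 to 74 of the 82 large falls. Both lowest counts came without day 7 replicate 3. In that library the small falls had a median log2 change of -0.6 from the day 5 mean, against -0.34 and -0.37 in replicates 1 and 2. The large falls were deeper in it as well, at -1.9 against -1.21 and -1.04.

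**Figure D3:**
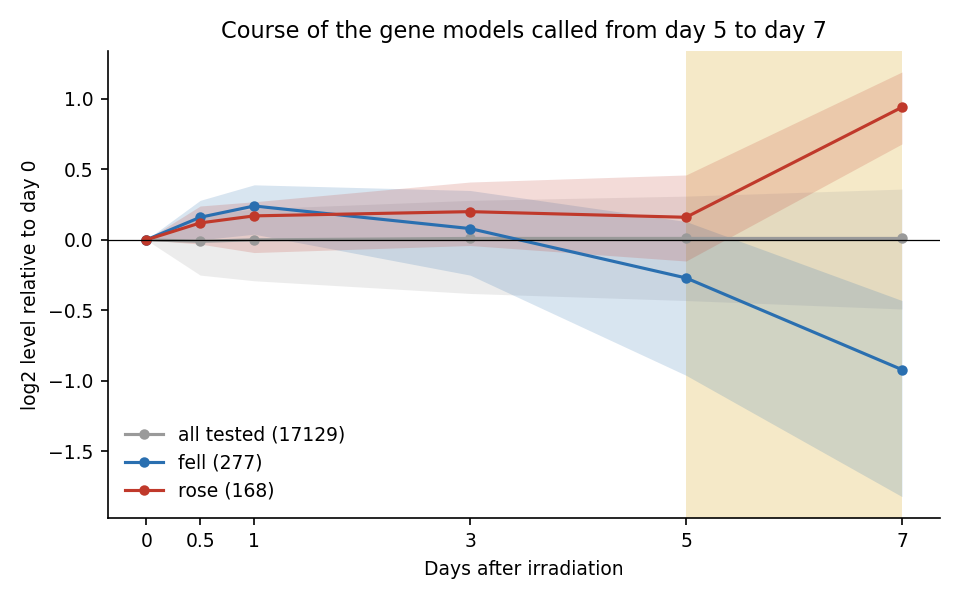
Median log2 level relative to day 0 (vertical axis; shaded bands are interquartile ranges over gene models) by days after irradiation (horizontal axis) for the 277 gene models that fell, the 168 that rose and all 17129 tested. The yellow strip marks the step that chose the sets. Blue rises to 0.24 at day 1 before it falls to -0.92, and red stays between 0.12 and 0.2 until day 5 and reaches 0.94.

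DjGI016426-001 fell most in log2 terms among the 213 falling gene models with at least 20 CPM at day 5 and no overlap. Its levels were 30.1, 36.7 and 29.2 CPM in the 3 day 5 libraries and 6.6, 9.82 and 6.83 CPM in the 3 day 7 libraries, where it had 35 to 47 counts. Every day 7 library lay well below every day 5 library, and the log2 change was -2.06 ± 0.14 (SE; edgeR adjusted p = 1.44e-10). Earlier means were 131 ± 10.6, 203 ± 1.25 and 127 ± 6.09 CPM for days 0, 1 and 3 (SD over 3 libraries). Day 1 was higher than day 0 by 0.64 ± 0.09 on the log2 scale (edgeR adjusted p = 1.06e-05). Day 3 did not pass the test against day 0 (-0.04 ± 0.09, edgeR adjusted p = 0.774), and the step from day 3 to day 5 was -1.99 ± 0.1 (edgeR adjusted p = 4.95e-14). Leaving out single libraries of days 5 and 7 moved its last step between -2.24 and -1.96.

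DjGI017537-001 lost the most CPM after day 5. It was at 1035, 1098 and 1073 CPM in the day 5 libraries and at 557, 584 and 180 CPM in the day 7 libraries. All 3 day 7 libraries were below day 5, and replicate 3 lay far below the other two. Its step measured -1.28 ± 0.22 on the log2 scale (SE; edgeR adjusted p = 0.000512), and without day 7 replicate 3 it was -0.91 (edgeR adjusted p = 4.48e-07). Earlier means were 991 ± 66.5, 2108 ± 95.3 and 1962 ± 116 CPM for days 0, 1 and 3 (SD over 3 libraries). Days 1 and 3 were higher than day 0, by 1.09 ± 0.21 and 0.98 ± 0.21 on the log2 scale (edgeR adjusted p = 4e-04 and 0.000622). The files do not say what either gene model encodes.

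The gene models that rose after day 5 included some that were already above day 0 by day 3. At that day, 44 of the 168 (26.2%) were higher than at day 0 and 6 (3.57%) were lower, against 13.3% and 18.5% of all tested. At 20 CPM and above 39 of 83 (47%) were higher, against 33.2%. The 44 had a median log2 step of 0.48, from a median level of 219 CPM to one of 287 CPM. Small changes pass the test more readily at high levels, so the split by the day 3 call is in part a split by level. Relative to day 0 their median log2 level was 0.16, 0.31, 0.48, 0.51 and 0.97 on days 0.5, 1, 3, 5 and 7. The share of 26.2% was unstable: it was 13.1% without day 5 replicate 3, 14.8% without day 7 replicate 1, 46.6% without day 7 replicate 3 and 7.69% with ERCC scaling, where 13%, 11.9%, 14.3% and 12% of all gene models tested were higher at day 3. The direction against the background thus turned with ERCC scaling, and no excess remained without day 5 replicate 3. ERCC scaling rests on 190 to 487 counts per library and left 65 rises, so the share under it is imprecise.

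Another 118 of the 168 (70.2%) had not been called at day 3, which is near the 68.2% of all tested. Their median level went from 10 to 20.7 CPM in the last step, and relative to day 0 their median log2 level was 0.13, 0.01 and 0.94 on days 3, 5 and 7. Of the 53 rises of at least 2-fold, 2 (3.77%) had been higher and 4 (7.55%) lower than day 0 at day 3, against 13.3% and 18.5% of all tested. Their median level was 3.56 CPM over the 18 libraries, where few changes can be called. The 6 gene models that had been lower at day 3 went from a median of -1.5 relative to day 0 at day 5 to -0.26 at day 7, and 5 of them still had a mean below day 0. Their share of 3.57% became 1.48% without day 0 replicate 2 and 9.92% without day 7 replicate 3. At day 7, 161 of the 168 (95.8%) had a mean above that of day 0, against 50.5% of all tested, and 159 (94.6%) had their highest mean of the 6 days, against 26%. Here too the day 7 values chose the set. Of the 53 large rises, 22 to 36 passed again when a single library of days 5 and 7 was left out.

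DjGI000021-009 rose most in log2 terms among the 100 rising gene models with at least 20 CPM at day 7 and no overlap. It was at 11.7, 6.96 and 10.8 CPM in the day 5 libraries, from 41 to 86 counts, and at 22.3, 33.9 and 32.4 CPM in the day 7 libraries, from 118 to 223 counts. The lowest day 7 library was still well above the highest day 5 library. Its log2 change was 1.57 ± 0.29 (SE; edgeR adjusted p = 0.00145), and without single libraries it was between 1.39 and 1.74. At days 0, 0.5, 1 and 3 its libraries spanned 1.5 to 9.5 CPM. It is 1 of 10 IDs with the same first number, between which reads may have been divided, so its level is uncertain.

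DjGI017681-001 gained the most CPM and is among the 44 that were higher at day 3 than at day 0. Its levels were 4543, 4832 and 4668 CPM in the day 5 libraries and 6842, 6604 and 5782 CPM in the day 7 libraries, without overlap. Its step was 0.45 ± 0.09 on the log2 scale (SE; edgeR adjusted p = 0.00271). It kept its direction with ERCC scaling but did not pass there, at 0.4 (edgeR adjusted p = 0.117). Earlier, its libraries spanned 3070 to 3555 CPM on day 0, 3842 to 4445 CPM on day 1 and 4208 to 4723 CPM on day 3. Between days 1 and 3, and again between days 3 and 5, its change did not pass the test, at 0.10 ± 0.09 and 0.06 ± 0.09 on the log2 scale (edgeR adjusted p = 0.648 and 0.925).

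**Figure D4:**
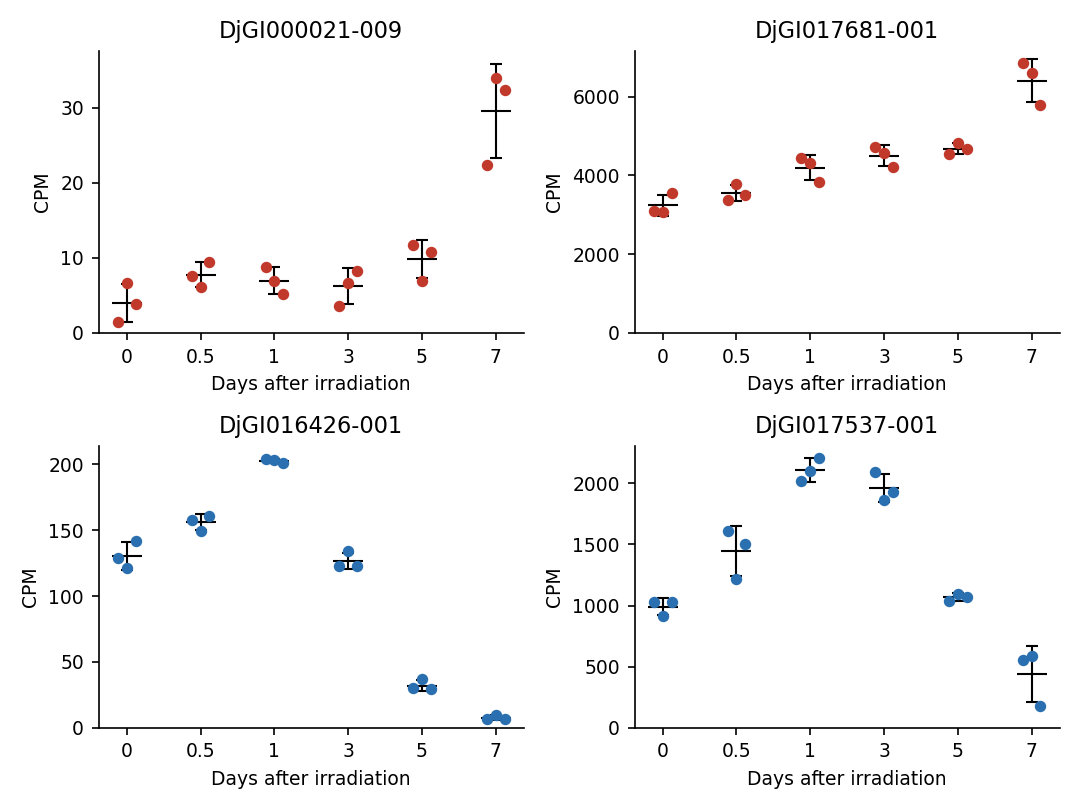
Level in CPM (vertical axes, starting at 0) of the 4 named gene models by days after irradiation (horizontal axes, equal spacing). Each point is a library and the black marks give the mean and SD of 3. The upper panels show the risers DjGI000021-009 and DjGI017681-001, and the lower panels the fallers DjGI016426-001 and DjGI017537-001, whose means were highest at day 1.

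Whether the last step differed from earlier steps of 2 days was tested directly. Against the step from day 1 to day 3, 192 gene models (1.12%) differed by edgeR, 105 with a lower (0.613%) and 87 with a higher (0.508%) log2 change after day 5. Of the 105, 80 were among the 277 that fell, and 25 were not called in the last step. Their median log2 change was -0.63 in the last step and 0.14 in the earlier one. Of the 87, 59 had fallen from day 1 to day 3. Their median was 0.35 in the last step and -0.77 in the earlier one, 16 of them rose after day 5 and 69 were not called there. The difference contains both steps, so these overlaps and medians are in part built in. Over all gene models tested, 1.62% fell and 0.981% rose in the last step, and 2.48% fell from day 1 to day 3. The 105 became 55 when day 1 replicate 1 was left out, 61 for day 3 replicate 1 and 67 for day 5 replicate 3. The 87 became 52 when day 1 replicate 1 was left out, 56 for day 3 replicate 3 and 54 for day 5 replicate 3. Lower and higher changes numbered 62 and 35 with ERCC scaling, 191 and 118 with DESeq2, and 172 and 188 without a filter on low counts. For 16 of the 168 gene models that rose, therefore, the difference from the step from day 1 to day 3 passed in the fit of all 18 libraries. How many of these 16 pass in the other fits was not counted.

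Against the step from day 3 to day 5, which uses the same day 5 libraries, 10 gene models differed (0.0584%; 1080 at an unadjusted p below 0.05, and 25 with DESeq2). Higher changes after day 5 numbered 8 (0.0467%) and lower ones 2 (0.0117%). All 8 had fallen from day 3 to day 5, and their median log2 change was -2.5 then and -0.89 in the last step, in which 5 of them still fell. The other 2 fell after day 5, with a median of -0.58, and had risen before. Here too the difference contains both steps, so these counts and medians are in part built in. The count of 10 became 1, 1 and 0 on omission of day 5 replicates 1, 2 or 3. Omission of day 3 replicates 1 or 2 gave 5 or 4, and of day 7 replicate 3 gave 23. It was 16 with library totals, 63 without the filter, and 1 with ERCC scaling and with only the 9 libraries of these days. No rising gene model was among the 10, so for none of the 168 was the rise after day 5 shown to differ from the change between day 3 and day 5. The median log2 changes from day 3 to day 5 were -0.32 in the falling and -0.03 in the rising set, next to -0.61 and 0.79 in the last step. They come from comparisons that share the day 5 libraries.

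**Figure D5:**
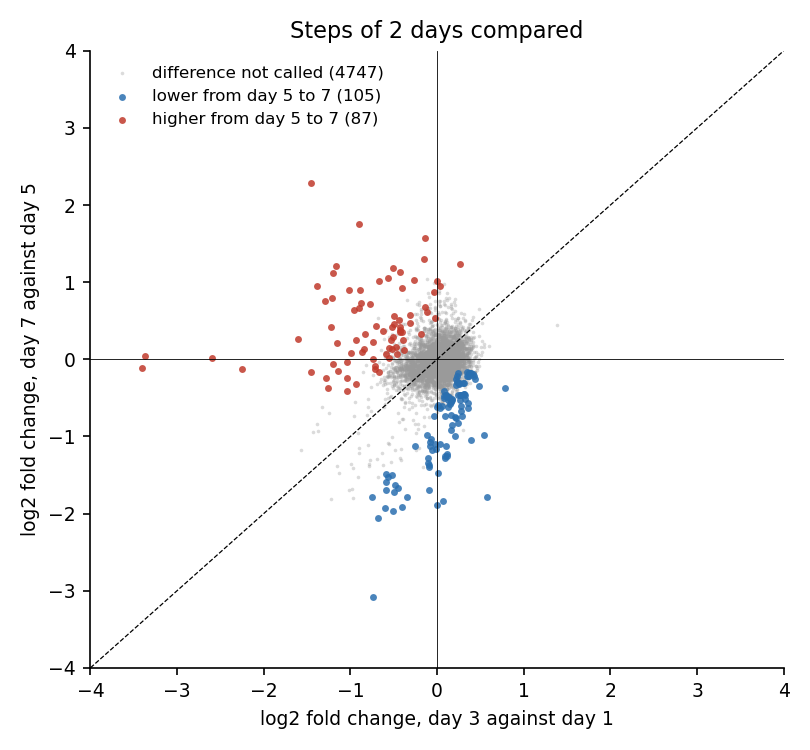
Log2 fold change from day 5 to day 7 (vertical axis) against that from day 1 to day 3 (horizontal axis) for gene models with a mean log2 level equal to at least 20 CPM and those called for a difference between the steps; 11 of 4939 points lie outside the axes. Blue marks the 105 with a lower and red the 87 with a higher change after day 5, and the dashed line marks equal change.

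Related IDs did not move in opposite directions where more than 1 was called. The 445 calls carried 257 different first numbers among the falls and 160 among the rises. Among the 20 first numbers with several called IDs, 0 had calls in both directions, which shared reads would also give. IDs that share a first number with another made up 24.2% of the falls and 28.6% of the rises, against 35.6% of all gene models tested. Gene models that vanished or appeared altogether were low. A total of 59 had at least 1 count in every day 5 library and none at day 7, and 43 the reverse, with no single count above 10. Of these 59 and 43, 6 and 0 passed the filter, so nearly all lie outside the gene models tested.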

How the data were processed

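Whole-body RNA was counted by 3' mRNA sequencing (Lasy-Seq, which indexes each RNA sample at reverse transcription and pools samples for library preparation), per the labels' protocols. The authors deposited estimated counts per gene model, not normalized, and, per the file headers, a table with each library's total count, number of rows above 0 and day; its days and totals were the same as those of the labels and the count table. Per the submitters' processing notes, the tools included BWA (0.7.17-r1188), Salmon and fastp (0.21.0); for the reference used, nothing is given in the sources used here. The 92 ERCC control rows (0.00338% to 0.0047% of counts) were left out, and 38 values that were not whole were rounded. Groups came from the sample titles.

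The default edgeR filter (minimum count 10, minimum total 15, by group) left 17129 gene models. The 8437 removed held 0.174% of the counts of days 5 and 7. The 320 that reached the minimum in exactly 3 libraries and passed had a median of 118 counts over all libraries, and the 399 that reached it in 2 and did not pass had 100. Of those tested, 1947 did not pass when the filter was run on the 6 libraries of the step alone, and 6 of the calls are among them. The filter sets its minimum in CPM from the median library total, so the minimum was higher in those smaller libraries. The edgeR 4.0.16 quasi-likelihood fit (R 4.3.3) used TMM scaling and all 18 libraries with 1 mean per day; two-sided p-values were adjusted over all gene models by Benjamini-Hochberg. Standard errors are the log2 change divided by the square root of F, an approximation. Relative levels used log2 CPM with a prior count of 2. Replicates of days 5 and 7 differed by more than counting noise.

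Members and lists were chosen with earlier results of these data known. Named IDs were, in each direction, the gene model with the largest log2 change and the one with the largest CPM change, among calls with at least 20 CPM in the higher day and no overlap. The stem cell and tissue gene lists could not be matched, because the files do not pair IDs with names. Alternatives were DESeq2 1.42.0, other scalings and filters, leaving out the 10 most abundant gene models, thinned libraries, the replicate number as a block, fewer libraries, sums over first numbers, and each library left out.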

Additional observations from a re-analysis of the deposited data

Results flagged for a closer look

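The step from day 5 to day 7 was tested against the other steps of 2 days, and 192 gene models differed from the step from day 1 to day 3 and 10 from the step from day 3 to day 5 (edgeR quasi-likelihood test of the difference). Among the named gene models, 3 passed against the step from day 1 to day 3. They were chosen for a large change in the last step, which the difference contains, so these passes are in part built in. DjGI000021-009 changed more upward after day 5, by 1.72 ± 0.43 on the log2 scale (SE; edgeR adjusted p = 0.0455). DjGI016426-001 changed more downward, with a difference of -1.38 ± 0.17 (SE; edgeR adjusted p = 1.5e-05), and so did DjGI017537-001, with -1.18 ± 0.3 (SE; edgeR adjusted p = 0.0488). None of the 4 named gene models passed against the step from day 3 to day 5.

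The ERCC control rows, which the comparisons leave out, held counts in every library, the lowest being 190. Their share of the counts was 0.0041% at day 5 and 0.00419% at day 7 on average (exact two-sided permutation p = 1, n = 3 each). No source used here says whether ERCC RNA was added to the samples.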

How the results depend on the processing

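Leaving out single libraries gave 272 to 443 calls from day 5 to day 7 in place of 445, 141 to 288 falls, 78 to 155 rises, 47 to 98 falls and 31 to 75 rises of at least 2-fold, 55 to 154 lower and 52 to 121 higher changes than from day 1 to day 3, and 0 to 23 differences from the step from day 3 to day 5. Of the falling gene models, 17.8% to 25.1% were then lower and 19.8% to 41.8% higher at day 3, 21.5% to 56.7% higher at day 1, and 14.5% to 38.3% fell from day 1 to day 3; of the rising ones, 1.48% to 9.92% were lower and 13.1% to 46.6% higher at day 3.

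Without a filter 283 gene models rose. Calls, falls and rises numbered 221, 156 and 65 with ERCC scaling, which rests on 190 to 487 counts per library. They numbered 274, 175 and 99 with thinned libraries (fewer counts). With only the libraries compared they numbered 211, 109 and 102 (fewer samples, and spread taken from these alone). At least 2-fold rises numbered 27, 27 and 35 under these 3 settings, and at least 2-fold falls kept within 1.5 times of 82 in all 12 alternatives that left no single library out. Lower and higher changes than from day 1 to day 3 numbered 191 and 118 with DESeq2, 62 and 35 with ERCC scaling and 172 and 188 without a filter; library totals gave 158 lower and thinning 51 higher. Differences from the step from day 3 to day 5 numbered 25 with DESeq2, 1 with ERCC scaling and 63 without a filter, with 16 for library totals and 1 for only the libraries compared. With ERCC scaling 15.4% of the falling gene models were lower at day 3, and 1.54% and 7.69% of the rising ones lower and higher, against 13.3% lower and 12% higher among all tested. Upper-quartile scaling gave 35.7% and 34.6% higher at day 3 in the falling and rising sets, against 16.8% of all. For the falling set at day 1 it gave 50% higher, against 11.2% of all, and library totals gave 46.7%, against 8.93%. The causes were not tested.

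Falls were 62.2% of calls, 51.7% with only the libraries compared and 51.8% without day 7 replicate 3; over all gene models the median log2 change lay between -0.057 (ERCC scaling) and 0.024 (upper-quartile scaling). Of 68 values of the named gene models, 67 kept direction and call. Same-numbered replicates of days 5 and 7 deviated together with correlations of 0.03, 0.085 and 0.12, so the numbers were not taken as pairs; with the replicate block 435 gene models passed (270 fell, 165 rose), with 112 lower and 92 higher changes than from day 1 to day 3 and 12 differences from the step from day 3 to day 5. The median standard error of the log2 change was 0.41 below 5 CPM and 0.096 above 100 CPM.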
